A study of Mus musculus with 4 samples.

Results

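Nova1, Nova2, Rbfox1, Rbfox2, Rbfox3, Ptbp1, Ptbp2, Celf4, Elavl3 and Khdrbs2 are 10 RNA-binding regulators of neuronal splicing, and they were followed here across the cell types of the postnatal mouse cerebellum. They were taken by symbol from the gene list of the files, so 10 of 32285 genes were members. All 10 were found, and all 10 were among the 15593 genes that passed the filter on low counts in the tests below. The study dissociated whole cerebella after removal of the meninges and made droplet single-cell libraries of 4 groups: WT and Eftud2 cKO (conditional knockout of Eftud2, a core spliceosomal GTPase) at postnatal days 10 and 14, with 1 library per group. The labels give neither the Cre driver nor the number of animals or whether they were pooled, and the series title places the deficiency in Purkinje cells. Cells with at least 4 of 8 Purkinje markers numbered 0 to 8 per library, so Purkinje cells were not described.

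Splicing regulators of this kind bind short sequence motifs in pre-mRNA and raise or lower the use of nearby exons, often according to which side of the exon they bind. Ptbp1 represses neuronal exons in progenitors and non-neuronal cells, and its paralog Ptbp2 takes over early in neuronal differentiation. Nova, Rbfox, Celf and neuronal Elavl proteins then act on exons of synaptic, channel and cytoskeletal genes, and Rbfox3 encodes the neuronal marker NeuN.

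After removal of cells with under 500 genes, with over 20% mitochondrial UMIs or called as doublets, the P10 libraries kept 13723 (WT) and 6417 (cKO) cells and the P14 libraries 14876 (WT) and 6148 (cKO), at medians of 7699 to 12209 UMIs per cell. The P10 WT library stood apart: its file header named Cell Ranger 5.0.0, while the P14 headers named 7.1.0 and that of P10 cKO 7.0.1, and its level of long genes was low. Over all cells, the median log2 ratio of P10 cKO over P10 WT was -0.42 for genes with under 10 kb of introns and 1.73 for genes with over 100 kb, while the same medians for P14 cKO over P14 WT were -0.03 and 0.06. P10 WT was therefore left out of the tests, and its values are given beside the others. Pairs of libraries shared 12 to 83 cell barcodes. Eftud2 itself stood at 52.1 and 47.3 CPM (UMIs of the gene relative to all UMIs of the library, on the CPM scale) in P10 WT and P14 WT and at 55.7 and 44.8 in P10 cKO and P14 cKO, so the whole-library level did not separate the genotypes. Xist was at 889 CPM or more in 3 libraries and at 0.528 in P10 cKO, where Ddx3y was at 59.9, so P10 cKO differed from the others in these sex-linked genes.

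Cells were assigned to classes by counts of marker genes, none of them a member, and the class names below stand for those gates rather than for an annotation by the authors. The gates took 77.6% to 82.7% of the cells of a library. In the 15 classes with at least 20 cells in each library other than P10 WT, UMIs were summed per class and library, and levels are given as CPM, the gene's UMIs over all UMIs of that sum scaled in the same way. Classes were compared with edgeR's quasi-likelihood test on these 45 sums, with library as a block, and p-values were adjusted by the Benjamini-Hochberg method over all 15593 genes at a threshold of 0.05. The 3 libraries of the fit are 2 cKO and 1 WT, and the block takes out differences between them that all classes share. The p-values rest on how far class differences vary between these libraries only. That spread is pooled over all 15 classes, with 28 residual degrees of freedom, and is not that of the compared classes alone. UMI counts grow with gene length where introns are counted, so levels are compared between classes for 1 gene and never between genes.

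Results below turn on Elavl3, which was called higher along the oligodendrocyte lineage, and on Ptbp1, which was called lower along the granule lineage, and their upstream windows are shown for that reason. RefSeq promoters (GRCm38.p6) were found for 8 of the 10 members. The E-box core CANNTG, searched on both strands, is in capitals; it was present in 66.2% of 32851 promoter windows of 250 bases, so its presence is a description and not a binding site. The Elavl3 window holds 2 such matches and a TATAAA within 250 bases upstream of the start, at chr9:22052024-22052273 on the minus strand. A TATAAA was present in 12.4% of all windows. The Ptbp1 window, at chr10:79854182-79854426 on the plus strand, also holds 2 matches and no TATAAA.
Elavl3: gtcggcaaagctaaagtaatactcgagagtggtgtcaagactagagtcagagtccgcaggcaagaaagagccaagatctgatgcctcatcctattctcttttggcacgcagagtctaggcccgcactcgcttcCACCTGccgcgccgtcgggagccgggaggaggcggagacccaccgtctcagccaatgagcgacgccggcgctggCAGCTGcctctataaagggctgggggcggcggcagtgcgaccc
Ptbp1: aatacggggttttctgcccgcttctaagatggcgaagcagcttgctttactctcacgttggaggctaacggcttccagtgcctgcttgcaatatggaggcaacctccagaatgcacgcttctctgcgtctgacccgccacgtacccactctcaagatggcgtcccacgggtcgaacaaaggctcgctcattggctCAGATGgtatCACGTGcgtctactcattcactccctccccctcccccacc
The Elavl3 gene lies at chr9:22015005-22052023 (GRCm38, GENCODE vM21) with 30.1 kb of introns and overlaps Gm49318, a gene on the same strand. Ptbp1 lies at chr10:79854427-79864771 with 5.61 kb of introns and overlaps Plppr3 on the opposite strand. Rbfox1, at chr16:5885355-7411526, has 1522 kb of introns, the most of any member.

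The Nova proteins bind YCAY clusters, and Nova1 and Nova2 had different leading classes. Nova1 was highest in oligodendrocyte precursors, at 486 (P10 cKO), 427 (P14 WT) and 493 CPM (P14 cKO), the order used for every set of 3 values below. Every one of these values lay above all values of newborn granule neurons, the next class, which ran from 251 to 273. Nova1 was lowest in endothelial cells, at 3.83, 8.88 and 7.19. Nova2 was highest in newborn granule neurons, at 350.2, 261 and 248, and these values overlapped with those of Atoh1+ progenitors (271, 200.5 and 265). Outside the neural classes, Nova2 stood at 108, 95.1 and 92.1 in endothelial cells, where Nova2 is known as a splicing regulator as well. It was at 9.18, 8.04 and 6.65 in microglia, with no overlap between these classes. P10 WT gave the same order for Nova2, with 65.8 in endothelial cells and 5.72 in microglia.

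The Rbfox proteins bind UGCAUG, and the 3 paralogs had 3 different patterns. Rbfox1 was highest in mature granule neurons, at 6985, 3566 and 2634 CPM. The libraries thus differed widely, and these values overlapped with those of Bergmann glia, at 2693, 3588 and 2190.4. Rbfox2 was highest in Pax2+ interneurons, at 764, 622 and 612, all above the 423 to 459 of newborn granule neurons. Its second tier, from newborn to intermediate granule neurons and Atoh1+ progenitors, overlapped between neighbours. Rbfox3 was highest in mature granule neurons, at 2195, 925 and 979, and the P10 cKO value was the high one. In P14 WT and P14 cKO, intermediate granule neurons had 948 and 969, so Rbfox3 did not separate these stages there. Committed oligodendrocytes had the lowest Rbfox3, at 24.8, 8.07 and 5.01.

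Ptbp1, the repressor of neuronal exons, was highest in microglia (74.0, 104 and 72.3), cycling progenitors (75.9, 87.6 and 67.9) and endothelial cells (80.4, 82.4 and 67.3). These 3 classes overlapped, and all lay above the 43.0 to 64.8 of fibroblasts. P10 WT gave 63.5, 75.3 and 76.1 in the same classes. Ptbp2, its neuronal paralog, was highest in Pax2+ interneurons, at 308, 326 and 339.9, above all values of Atoh1+ progenitors (239, 277 and 269). The 5 granule stages overlapped for Ptbp2, with means from 216 to 262. Its range over classes was narrow: the highest class mean was 4.86 times the lowest, in fibroblasts, against 148 times for Rbfox1.

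Celf4, a CELF family protein that binds GU-rich sequence, was highest in intermediate granule neurons, at 1256, 974 and 1183, and overlapped with mature granule neurons and Pax2+ interneurons. Khdrbs2, also named SLM1 and a KH-domain relative of Sam68, was highest in oligodendrocyte precursors, at 217, 256 and 227. All 3 lay above the 116 to 205 of committed oligodendrocytes. Elavl3, the neuronal Hu protein HuC, was highest in newborn granule neurons, at 976, 927 and 842. Myelinating oligodendrocytes had rank 3 of 15 classes for Elavl3, at 913, 807 and 646, and overlapped with Atoh1+ progenitors and intermediate granule neurons.

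**Figure D1:**
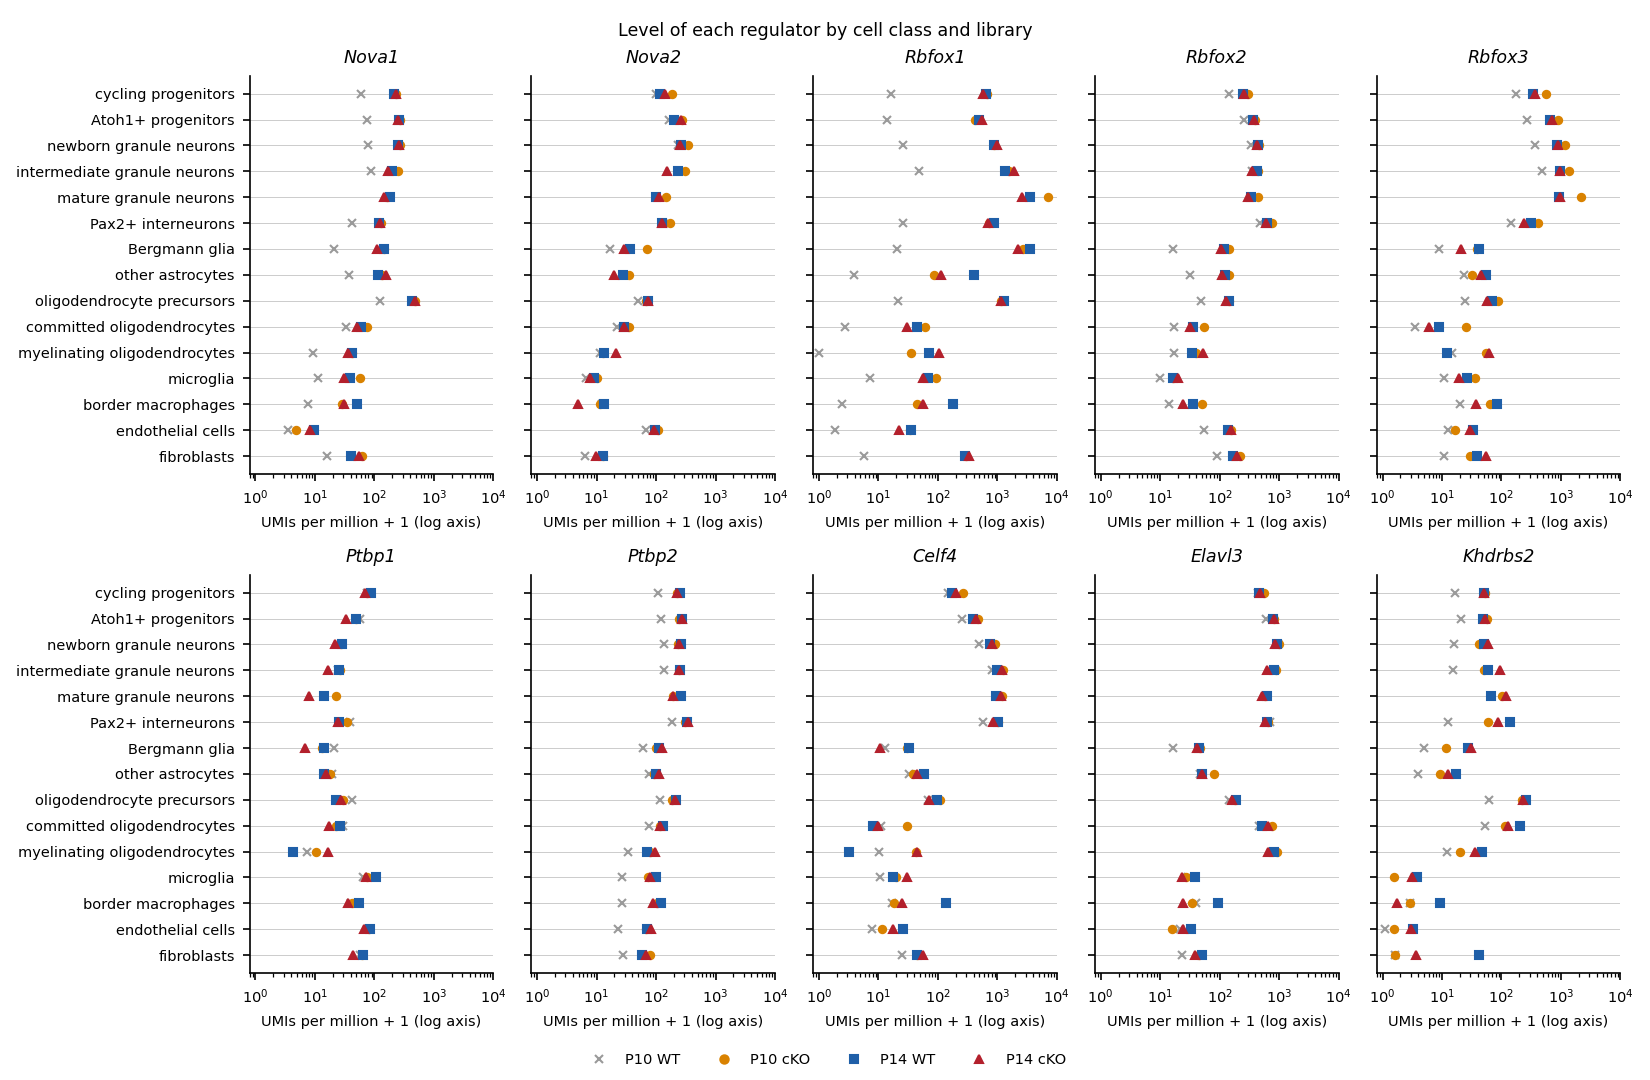
Level of each regulator in 15 marker-gated classes, as CPM plus 1 on a log axis, with 1 point per library. P10 WT (crosses) lies below the other 3 libraries for the long genes, most of all Rbfox1 and least for Ptbp1 and Elavl3; Elavl3 in myelinating oligodendrocytes (646 to 913) lies within its range over the granule stages (465 to 976).

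Across the granule lineage, from cycling progenitors to mature neurons, Ptbp1 fell while Rbfox1, Celf4 and Rbfox3 rose. Ptbp1 went from 75.9, 87.6 and 67.9 to 21.9, 13.1 and 6.97 CPM. The stages did not overlap, and Ptbp1 fell by 2.88 on the log2 scale (SE 0.27, edgeR adjusted p = 1.8e-11). Rbfox1 went from 674, 633 and 578 in cycling progenitors to the values above, a log2 change of 2.72 (SE 0.38, edgeR adjusted p = 1.3e-07). Celf4 went from 264, 175 and 202 to 1204, 967 and 1138, a log2 change of 2.31 (SE 0.39, edgeR adjusted p = 5.5e-06). Rbfox3 went from 565, 341 and 364, a log2 change of 1.57 (SE 0.32, edgeR adjusted p = 6.6e-05). All 4 changes had the same sign in 3 of 3 libraries. In all, 5 of 10 members were higher in mature neurons, against 21.6% of all genes, and 2 were lower, against 27.3%. The other calls were small: Khdrbs2 (0.93), Rbfox2 (0.36) and Nova1 (-0.53). Leaving out any of the 3 libraries ended the call of Rbfox2 (adjusted p = 0.22, 0.10 and 0.077). The Khdrbs2 call was lost without P10 cKO (adjusted p = 0.052) or P14 cKO (adjusted p = 0.44), and the Nova1 call without P14 cKO (adjusted p = 0.095). Elavl3 and Ptbp2, at log2 changes of 0.14 (SE 0.20) and -0.22 (SE 0.13), did not pass the test between these end stages.

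The single steps of the lineage gave fewer stable calls. From Atoh1+ progenitors outside S-G2-M to newborn neurons, 4 members were higher (11.9% of all genes) and 0 lower (3.69%), where all genes had a median log2 change of 0.20. Celf4 (1.21, SE 0.38), Rbfox1 (1.18, SE 0.36), Rbfox2 (0.51, SE 0.14) and Nova2 (0.50, SE 0.16) were the ones called. This count was 0 without P10 cKO, 1 without P14 WT, 1 without P14 cKO and 0 with DESeq2. The folds of Celf4 and Rbfox1 stayed near their size. Celf4 was at 1.15 without P10 cKO and 1.18 without P14 cKO, and Rbfox1 at 1.06 to 1.19 over the libraries left out. Nova2 was at 0.36 without P10 cKO and 0.39 without P14 WT. With DESeq2, Nova2 and Rbfox2 were at 0.31 and 0.33. Within libraries, Nova2 differed by 0.37, 0.38 and -0.10, and Rbfox2 by 0.25, 0.26 and 0.18. Celf4 differed by 0.92, 0.92 and 0.93, and Rbfox1 by 1.06, 0.82 and 0.83. These differences, taken on total UMIs without the scaling factors of the fit, all lay below the fitted folds. Celf4 was the call that held without P14 WT, and Nova2 the one without P14 cKO. Ptbp1, at -0.50 (SE 0.19, edgeR adjusted p = 0.064), was the 1 member lower at an unadjusted p under 0.05. Its differences within libraries, at -0.83, -0.83 and -0.66, were larger in size than this fitted value. DESeq2 called 1 member lower. From newborn to intermediate neurons 0 members were called in either direction, against 2.24% and 1.85% of all genes, by edgeR and by DESeq2. The largest change there was Rbfox1 at 0.80 (SE 0.35, edgeR adjusted p = 0.25, unadjusted p = 0.031), and 3 members were under an unadjusted p of 0.05.

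From intermediate to mature neurons, 1 member was higher (5.46% of all genes) and 5 were lower (8.62%). Nova2 went from 308, 229 and 152 to 147, 99.9 and 109. The stages did not overlap, Nova2 fell by 1.07 on the log2 scale (SE 0.18, edgeR adjusted p = 4.8e-05), and leaving out each library in turn did not end this call. Rbfox1 went from 1567, 1353 and 1935 to the mature values above, a log2 change of 1.25 (SE 0.36, edgeR adjusted p = 0.015) that was 0.72 without P10 cKO (adjusted p = 0.33). The other lower calls, Ptbp1 (-1.12), Elavl3 (-0.60), Nova1 (-0.50) and Ptbp2 (-0.39), were less firm. Elavl3, Nova1 and Ptbp2 were not called without any of the 3 libraries (adjusted p = 0.090 to 0.37). Without P14 cKO, Ptbp1 was at -0.65 (adjusted p = 0.35). The count of lower members was 2 without P10 cKO, 2 without P14 WT and 1 without P14 cKO. The mature class held 68, 54 and 338 cells, and 3 in P10 WT.

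**Figure D2:**
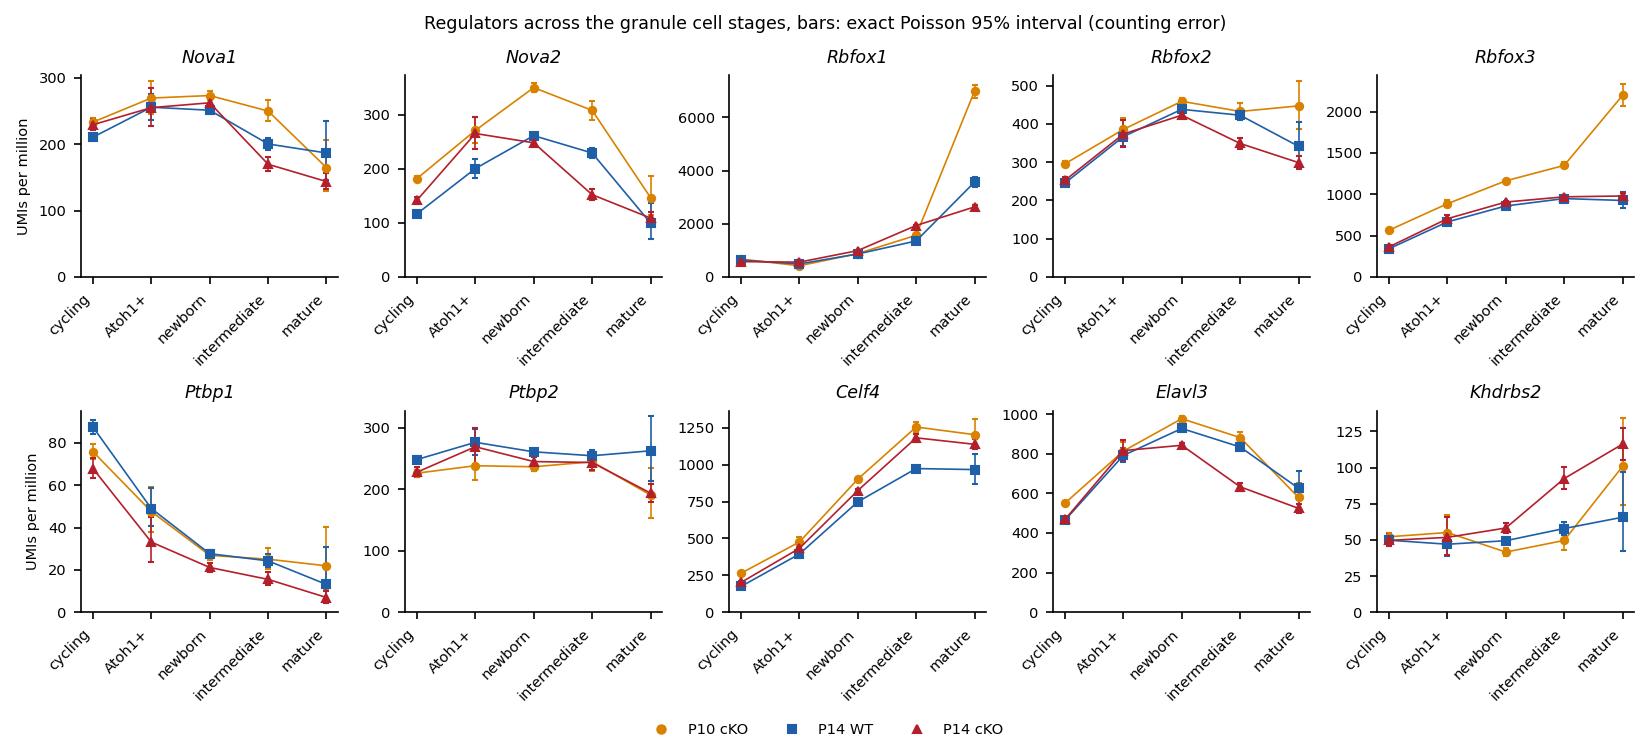
CPM of each regulator in the 5 granule stages, 1 line per library, with exact Poisson 95% intervals for counting error; each vertical axis starts at 0. Ptbp1 falls from 67.9 to 87.6 in cycling progenitors to 6.97 to 21.9 in mature neurons, and Rbfox1 reaches its highest value of 6985 in the mature class of P10 cKO.

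Of the other splicing and RNA-binding regulators on the list, 24 of 25 were in the files and 22 were tested. Between mature and cycling cells 5 of these 22 were higher and 8 lower. Mbnl2, a muscleblind paralog, was higher by 2.67 (SE 0.18), while Mbnl3 (-4.21, SE 0.60), Rbm38 (-2.94, SE 0.41), Khdrbs3 (-2.69, SE 0.31) and Elavl2 (-2.27, SE 0.33) were lower, all with edgeR adjusted p under the threshold. Khdrbs3 and Khdrbs2, paralogs, thus had opposite signs over the lineage, while Elavl3, the paralog of Elavl2, did not pass the test. The median log2 change was 0.09 over the 22 genes, 0.25 over the 10 members and -0.11 over all genes.

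Set against glia, granule neurons had more of 9 of the 10 members, and 33.0% of all genes were called in that direction. The neuron side was the mean of intermediate and mature granule neurons, and the glia side was the mean of Bergmann glia, other astrocytes, myelinating oligodendrocytes and microglia. Oligodendrocyte precursors and committed oligodendrocytes were not on the glia side. Precursors held more Nova1 (427 to 493 CPM) than these neurons (144 to 249.7), and both classes held more Khdrbs2 on average (233 and 150 CPM) than intermediate and mature neurons (66.7 and 94.3). On the glia side itself, Bergmann glia held Rbfox1 at 2190 to 3588 CPM, above intermediate granule neurons (1353 to 1935). Myelinating oligodendrocytes held Elavl3 at 646 to 913 CPM, above mature granule neurons (524 to 625). Celf4 (5.02, SE 0.26) and Rbfox3 (4.82, SE 0.21) had the largest log2 differences, with edgeR adjusted p of 2.8e-19 and 2.0e-21. Rbfox1 (3.36), Nova2 (2.91), Elavl3 (2.81), Khdrbs2 (2.66) and Rbfox2 (2.55) followed, and Nova1 (1.18) and Ptbp2 (1.14) had the smallest. These 9 differences had the same sign in 3 of 3 libraries and were called without each library in turn. Ptbp1 was called lower in neurons (-0.51, SE 0.19, edgeR adjusted p = 0.020; 29.1% of all genes), but its differences within libraries were 0.22, 0.19 and -0.82. Without P14 cKO the Ptbp1 difference was 0.09 (adjusted p = 0.91), so its direction rested on that library. Of the 22 other regulators 15 were higher in neurons and 2 lower, with Srrm3 (4.64), Srrm4 (4.42) and Celf5 (4.20) higher and Qk (-3.69), the glial quaking protein, lower. The median over the members was 2.73, against 0.77 over the other regulators and -0.01 over all genes.

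Pax2+ interneurons, the immature GABAergic neurons of the cerebellum, held all 3 Rbfox genes but at other levels than granule neurons, with more Rbfox2 and less Rbfox1 and Rbfox3. The class also carried granule lineage markers at 1491 to 1652 CPM, with a median of 3 to 4 of the 8 markers per cell. Intermediate granule neurons had 5492 to 5699.6. This list includes Zic1 and Zic2, which the gate took as shared by interneurons and the granule lineage and did not count against interneurons. The part of these markers in the Rbfox differences was not tested. Rbfox3 was at 418, 318 and 240.3 in Pax2+ interneurons and at 1349, 948 and 969 in intermediate granule neurons, with no overlap. It was lower by 1.94 on the log2 scale than in the mean of intermediate and mature granule neurons (SE 0.29, edgeR adjusted p = 1.5e-06). Rbfox1 was lower by 1.84 (SE 0.34, edgeR adjusted p = 3.1e-05), and Rbfox2 was higher by 0.76 (SE 0.12, edgeR adjusted p = 3.4e-06), each in 3 of 3 libraries. In all 3 members were higher (17.3% of all genes), the others being Ptbp1 (0.81, SE 0.20) and Ptbp2 (0.46, SE 0.10), and 3 were lower (15.2%), the third being Nova1 (-0.60, SE 0.14). Without P14 cKO the higher count was 1, since Ptbp1 (0.49, adjusted p = 0.20) and Ptbp2 (0.40, adjusted p = 0.059) were no longer called. Under a stricter gate, which left no mature granule class, Ptbp1 was at 0.29 (adjusted p = 0.27), and at equal depth per cell it was at 0.77 (adjusted p = 0.075). Celf4, at -0.27 (SE 0.33), did not pass the test. This comparison was added after the cell counts were seen, because Pax2- interneurons had 15 cells in P10 cKO. In the 49 Pax2- cells of P14 WT and 24 of P14 cKO, Khdrbs2 was at 222 and 204 CPM, against 137 and 84.9 in Pax2+ cells. Among the other regulators 5 of 22 were higher and 5 lower in Pax2+ interneurons, led by Mbnl2 (-2.30), Celf2 (-1.98), Raver2 (-1.53) and Srrm4 (-1.48), all lower, and Rbm38 (1.31), higher.

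In the oligodendrocyte lineage Elavl3 rose while most other members fell. Elavl3 went from 183, 185 and 163 CPM in precursors to 745, 518 and 654 in committed oligodendrocytes, with no overlap. The log2 change was 2.19 (SE 0.21, edgeR adjusted p = 3.9e-11), the only call in that direction among the members, against 26.5% of all genes. P10 WT had 144, 459 and 761 in precursors, committed and myelinating oligodendrocytes, the same order. In the other direction 7 members were lower, against 25.9% of all genes. Rbfox1 went from 1139.8, 1283 and 1139 to 59.3, 43.9 and 28.8, with no overlap. It fell by 4.46 on the log2 scale (SE 0.41, edgeR adjusted p = 1.4e-11). Nova1 fell by 2.63 (SE 0.16), Celf4 by 2.40 (SE 0.44), Rbfox3 by 2.34 (SE 0.37), Rbfox2 by 1.51 (SE 0.15), Nova2 by 0.94 (SE 0.18) and Ptbp2 by 0.41 (SE 0.12). The Ptbp2 call was lost without P14 cKO (adjusted p = 0.069). Sums over the marker lists of neurons were lower alongside. The 9 mature granule markers summed to 2538, 2765 and 2577 CPM in precursors and to 113, 136 and 99.1 in committed oligodendrocytes. In P10 WT these sums were 319 and 63.7. The 8 GABAergic interneuron markers went from 412, 449 and 370.1 to 25.1, 13.4 and 12.7, and Snap25 from 144, 222 and 142 to 17.1, 24.5 and 14.4. In P10 cKO, the 8 granule lineage markers summed to 242 in precursors and 78.1 in committed oligodendrocytes. Mature granule neurons of P10 cKO had 4140 for the granule lineage markers and 5860 for the mature granule markers. In P10 cKO precursors 6 of the 9 mature granule markers were detected, with a median of 2 per cell. Which of them made up the sum was not examined. The part of any of these markers in the lower members was not tested. Khdrbs2 (-0.35, SE 0.31, edgeR adjusted p = 0.36) and Ptbp1 (0.04, SE 0.21, edgeR adjusted p = 0.91) did not pass the test. Of the other regulators 3 of 22 were higher and 14 lower, with Rbm24, Celf6, Srrm3, Raver2 and Celf3 lower by 3.95, 3.94, 3.72, 2.91 and 2.67. This comparison was chosen after the levels were seen, so it describes these libraries and is no independent evidence of the pattern.

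In committed oligodendrocytes the high Elavl3 stood beside low Rbfox3, Celf4, Tubb3 and Snap25, but not beside low levels of every member. Khdrbs2 was at 116 to 205 CPM there, above newborn granule neurons (41.6 to 58.2), and Ptbp2 was at 114 to 132, against 237 to 261. Rbfox3 and Celf4 stood at 5.01 to 24.8 and 7.01 to 28.9 CPM in committed oligodendrocytes, against 858 to 1162 and 748 to 902 in newborn granule neurons. Tubb3, a neuronal tubulin, was at 35.3 to 46.0 there and at 1113 to 1256 in newborn granule neurons. Snap25, a presynaptic protein, was at 14.4 to 24.5 and at 680 to 804. The 8 granule lineage markers summed to 46.0 to 78.1 in committed oligodendrocytes and to 5717 to 5841 in newborn granule neurons. At 2000 UMIs per cell, Elavl3 had a UMI in 39.5% of 263 committed oligodendrocytes of P14 WT (exact 95% interval 33.6% to 45.7%) and in 57.7% of 196 of P14 cKO (50.4% to 64.7%), while microglia had 4.48% and 4.91%. Without thinning the shares were 86.7% and 91.4% in committed oligodendrocytes, at medians of 23831 and 43178.5 UMIs per cell, and 12.1% and 16.2% in microglia, at 8654 and 16690.5. Myelinating oligodendrocytes had Tubb3 at 137, 215 and 185, Snap25 at 34.8, 7.90 and 47.4, and granule lineage markers at 188, 47.4 and 315. Tubb3 was thus above committed oligodendrocytes in all 3 libraries, and Snap25 and the granule lineage markers in the 2 cKO libraries only; their part in the Elavl3 level was not tested. Gm49318, the same-strand gene that overlaps Elavl3, was not among the gene symbols of the count data and had no counts under that name. Reads of such an overlap cannot be assigned from UMI counts.

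Between astroglia (Bergmann glia and other astrocytes) and myelinating oligodendrocytes, 4 members were higher in astroglia (26.7% of all genes) and 2 lower (22.5%). Elavl3 was lower by 4.13 (SE 0.19, edgeR adjusted p = 7.6e-20), the largest difference of the 10. Rbfox1 (3.22, SE 0.39), Nova1 (1.68, SE 0.19), Rbfox2 (1.39, SE 0.17) and Nova2 (0.89, SE 0.27) were higher. Nova2 was at 0.58 without P10 cKO (adjusted p = 0.12) and at 0.74 without P14 WT (adjusted p = 0.12). Khdrbs2 was called lower (-1.15, SE 0.47, edgeR adjusted p = 0.041) but not without P10 cKO (adjusted p = 0.071) or P14 cKO (adjusted p = 0.13), which left 1 lower member. The myelinating class was small and shallow, with 31, 42 and 185 cells at medians of 2827, 3643.5 and 1258 UMIs. Of the other regulators 6 of 22 were higher in astroglia and 7 lower, among them Raver2 (5.07), Rbm24 (3.23), Msi1 (3.10) and Msi2 (2.72), higher, and Mbnl2 (-1.92), lower.

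Within astroglia, Rbfox1 separated Bergmann glia, the radial glia that hold the Purkinje cell layer, from other astrocytes. It was at 2693, 3588 and 2190.4 CPM in Bergmann glia and at 84.2, 410.2 and 110.0 in other astrocytes, with no overlap. The log2 difference was 3.67 (SE 0.40, edgeR adjusted p = 1.0e-08) and was called without each library in turn. Rbfox1 was the 1 member called higher, against 6.02% of all genes, and 0 were lower, against 7.28%, by edgeR and by DESeq2. At an unadjusted p under 0.05 in the lower direction there were 0 members. At 2000 UMIs per cell, 80.0% of 45, 92.3% of 286 and 59.3% of 27 Bergmann glia had an Rbfox1 UMI, against 15.6%, 25.1% and 10.3% of other astrocytes. Without thinning the shares were 87.2%, 95.2% and 78.6% against 36.4%, 39.7% and 27.7%. P10 WT had 19.7 CPM in 28 Bergmann glia and 2.88 in 149 other astrocytes. These sums held 254102 and 1040387 UMIs in all, so both values rested on few Rbfox1 UMIs. Bergmann glia summed to 584 to 815 CPM of granule lineage markers and other astrocytes to 525 to 616. Their Rbfox3, which mature granule neurons hold at 925 or more, was 19.7 to 40.5. The 8 Purkinje markers summed to 162 CPM in Bergmann glia and 109 in other astrocytes of P10 cKO. In P10 WT they summed to 146 and 55.7. The part of any of these markers in the Rbfox1 difference was not tested. This comparison was chosen after the levels were seen. Of the other regulators, Rbm24 (2.02), Msi2 (0.79) and Qk (0.74) were higher in Bergmann glia and Rbm38 (-2.20) lower.

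Set beside astroglia, microglia held more Ptbp1 and less Rbfox2. Their Ptbp1 overlapped with that of cycling progenitors and endothelial cells, as given above. Astroglia had 7 members called against microglia: 6 were higher (33.4% of all genes) and 1 was lower (35.1%), shares of all genes that are large in themselves. Ptbp1 was lower in astroglia by 2.98 (SE 0.19, edgeR adjusted p = 2.6e-16), in 3 of 3 libraries. Microglia held Rbfox2 at 15.7, 15.2 and 19.1 CPM, against 106 to 143 in Bergmann glia and other astrocytes, a log2 difference of 2.58 (SE 0.16, edgeR adjusted p = 6.4e-17). Rbfox1 (3.20), Khdrbs2 (2.75), Nova2 (1.81) and Nova1 (1.51) were also higher in astroglia. Elavl3 (0.50, SE 0.22, edgeR adjusted p = 0.038) was not called without P10 cKO (adjusted p = 0.24) or P14 cKO (adjusted p = 0.19). Ptbp2 (0.09, SE 0.12) and Rbfox3 (0.48, SE 0.34) did not pass the test. Ptbp3, the third polypyrimidine tract protein, went with Ptbp1 and was lower in astroglia by 4.04 (SE 0.13), as was Mbnl1, by 3.22, while Raver2 (6.69), Rbm24 (5.31) and Msi1 (4.17) were higher. In all 7 of 22 other regulators were higher and 8 lower.

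**Figure D3:**
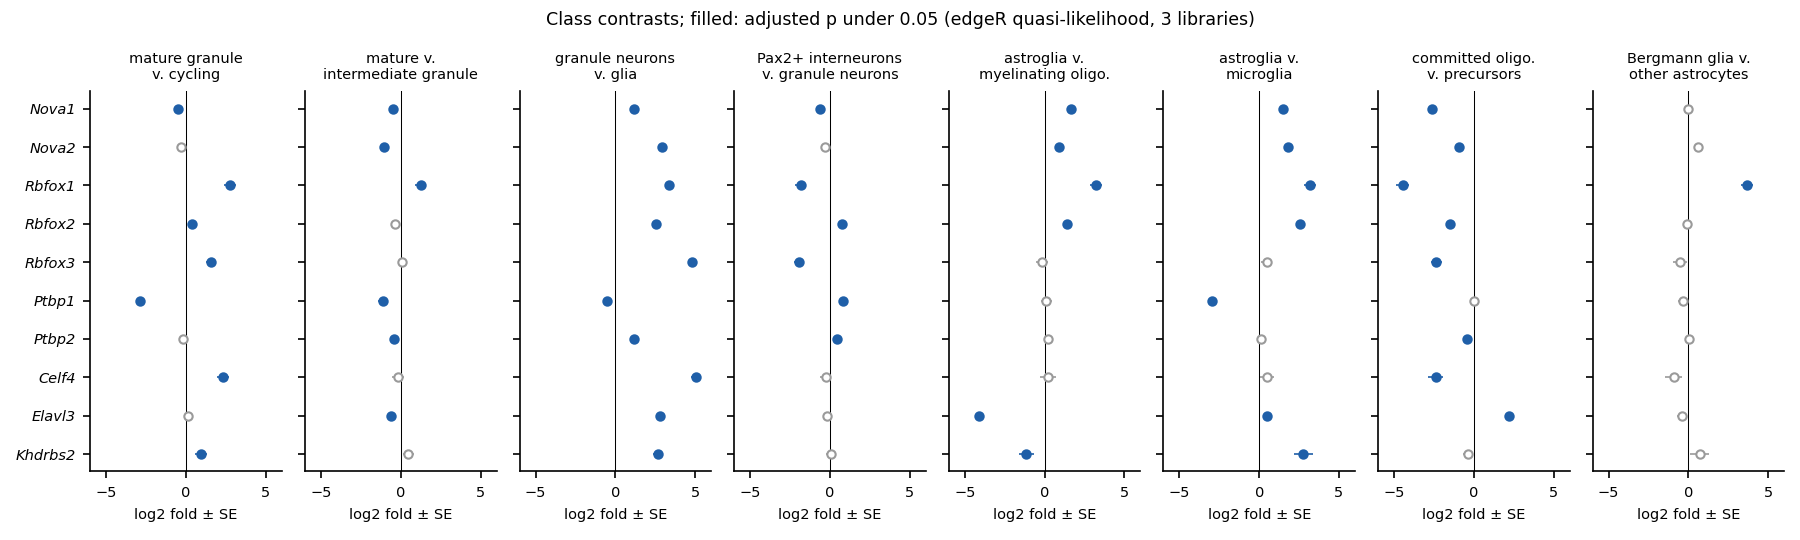
Log2 fold of the 10 regulators in 8 class comparisons, with the standard error of the fit over 3 libraries; filled points have an edgeR adjusted p under 0.05. Elavl3 is the regulator that is higher in committed oligodendrocytes than in precursors (2.19) and lower in astroglia than in myelinating oligodendrocytes (-4.13), opposite to Rbfox1 in both.

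Between genotypes at P14, the members' levels differed little in most classes. A single library stands for each group and no test can be made, so each ratio is given with an exact 95% interval that covers counting error only, and a value counts as past the cut at 2-fold or more with at least 50 UMIs over both libraries. Of 139 member values over 15 classes, 2 were higher in P14 cKO (2.16% of all values) and 7 were lower (1.53%). At equal depth per cell the counts were 0 and 2: all 9 ratios were still past 2-fold in the same direction, but fewer of them had 50 UMIs. In the cycling, Atoh1+, newborn, intermediate and mature granule classes and in Pax2+ interneurons, 0 member values with enough UMIs were past 2-fold. In newborn granule neurons, the largest of these classes in UMIs, the member log2 ratios ran from -0.39 (Ptbp1, interval -0.56 to -0.21) to 0.24 (Khdrbs2, 0.12 to 0.35). Ptbp1 was at 87.6 in P14 WT and 67.9 in P14 cKO in cycling progenitors, a log2 ratio of -0.37 (-0.48 to -0.25), and its log2 ratios in the 4 granule classes with enough UMIs were -0.37 to -0.64. Each genotype is 1 library here, so genotype and library cannot be told apart.

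The values past 2-fold at P14 lay in other astrocytes, Bergmann glia, myelinating oligodendrocytes, border macrophages and fibroblasts. Rbfox1 in other astrocytes was at 110.0 in P14 cKO and 410.2 in P14 WT, a log2 ratio of -1.89 (-2.20 to -1.61) that was -3.33 at equal depth per cell. P10 cKO had 84.2 there, so the P14 WT value was the high one of the 3. The gate of other astrocytes took astroglia with under 3 Bergmann glia markers and no Gdf10 UMI. Bergmann glia and other astrocytes numbered 293 and 282 cells in P14 WT. In P14 cKO they numbered 28 and 101, and in P10 cKO 47 and 44. The part of Bergmann glia in the Rbfox1 ratio was not tested. Border macrophages held 4 of the 7 lower values: Celf4 (-2.50, interval -3.19 to -1.87), Elavl3 (-2.04, -2.77 to -1.34), Rbfox1 (-1.70, -2.18 to -1.24) and Rbfox3 (-1.18, -1.82 to -0.53). In the same class the 8 granule lineage markers summed to 496 CPM in P14 WT, which had 58 cells, and to 175 in P14 cKO; their part in these 4 ratios was not tested. With called doublets kept, the border macrophage ratios of Rbfox3 and Elavl3 were -0.47 and -0.99. Khdrbs2 in fibroblasts was at 40.4 in P14 WT and 2.62 in P14 cKO, a log2 ratio of -3.81 (-5.59 to -2.68), with a UMI in 15.4% of 247 and 3.85% of 104 cells. P10 cKO had 0.617 and P10 WT 0.621, so P14 WT was the high one. Outside the 15 classes, Khdrbs2 in the unipolar brush lineage was at 541 in P14 WT and 212 in P14 cKO, a log2 ratio of -1.35 (-1.64 to -1.07). Celf4 in Bergmann glia (-1.59, -3.37 to -0.45) rested on 5 UMIs in P14 cKO and was 0.73 with called doublets kept. In myelinating oligodendrocytes Celf4 was at 43.2 in P14 cKO and 2.26 in P14 WT, a log2 ratio of 3.95 (2.34 to 7.34). The P14 WT sum held 42 cells and 885747 UMIs in all, and its Celf4 value rested on under 3 UMIs. Rbfox3 was at 60.9 and 11.3 there (2.37, 1.48 to 3.54). The granule lineage markers summed to 315 and 47.4 in these 2 sums, and their part in the ratios was not tested.

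**Figure D4:**
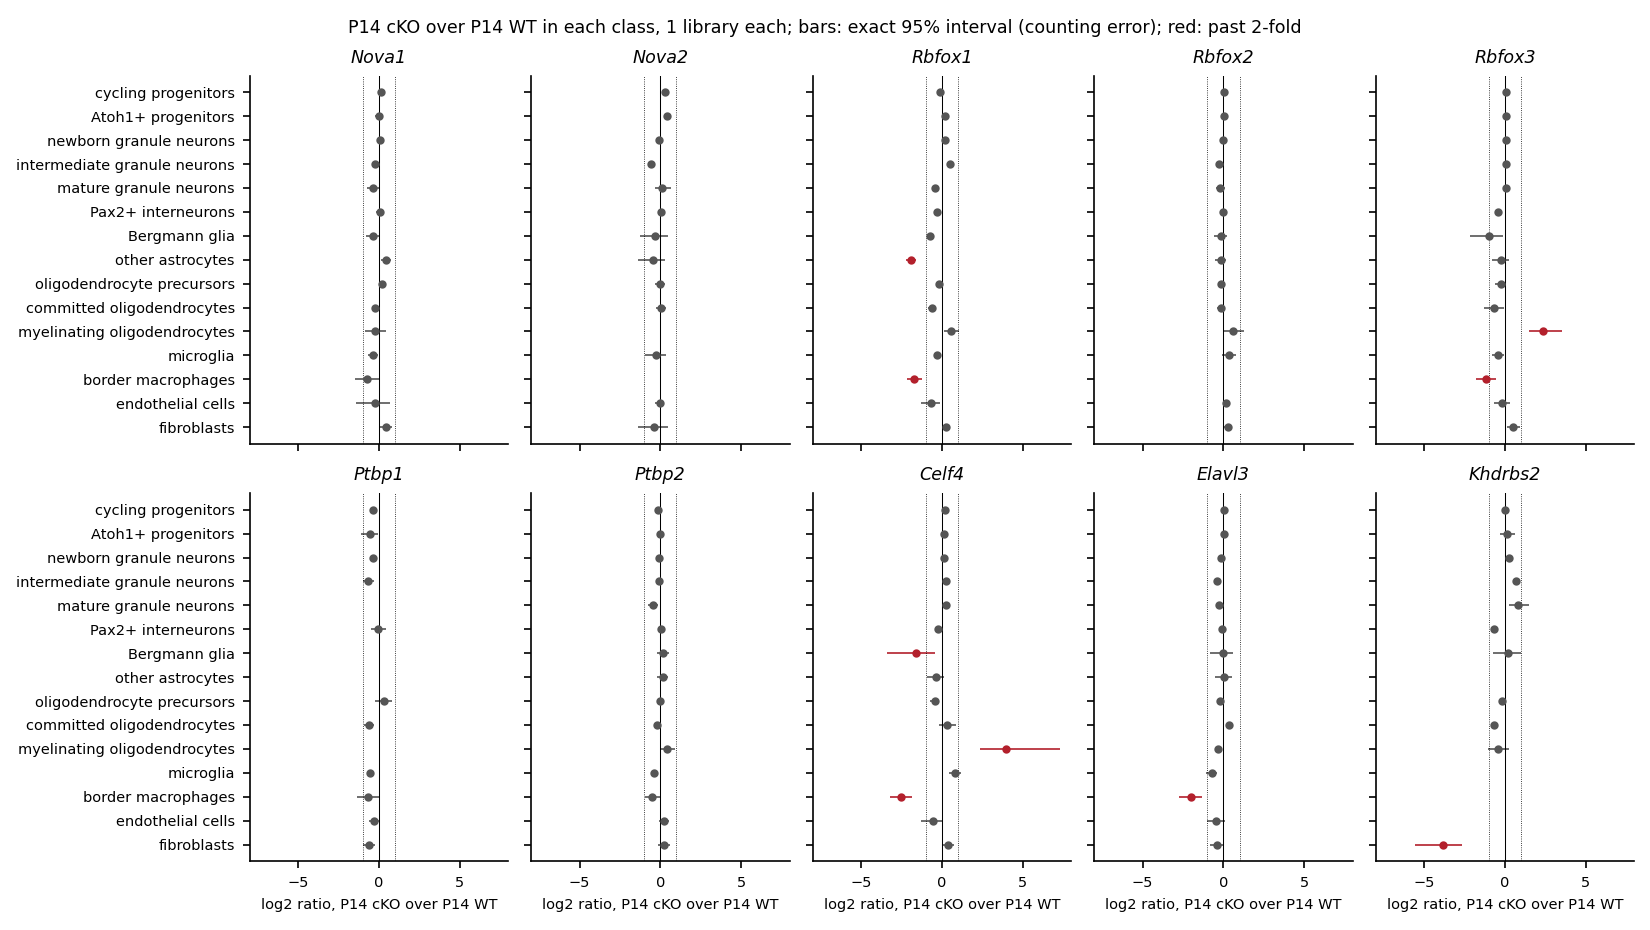
Log2 ratio of P14 cKO over P14 WT for each regulator in 15 classes, with exact 95% intervals for counting error only; dotted lines mark 2-fold and red marks values past it. The granule stages and Pax2+ interneurons show no red point, and 4 of the 7 lower values are in border macrophages.

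From P10 cKO to P14 cKO, 1 of 131 member values was at least 2-fold higher (2.63% of all values) and 8 were lower (2.29%). Age and library cannot be told apart here either. In mature granule neurons Rbfox1 went from 6985 to 2634, a log2 ratio of -1.41 (-1.46 to -1.35), and Rbfox3 from 2195 to 979 (-1.17, -1.27 to -1.06). P14 WT lay between these 2 values for Rbfox1, at 3566, and below both for Rbfox3, at 925. Nova2 in intermediate granule neurons went from 308 to 152 (-1.02, -1.14 to -0.90), with P14 WT at 229. The mature granule markers of that class summed to 646 CPM in P10 cKO, 1651 in P14 cKO and 509.8 in P14 WT, and their part in the Nova2 ratio was not tested. In committed oligodendrocytes Rbfox3 (-2.30), Celf4 (-1.71) and Rbfox1 (-1.04) were lower at P14, from 24.8, 28.9 and 59.3 CPM. Rbfox3 there was -1.44 at equal depth per cell and -1.69 with called doublets kept. The other lower values were Nova2 in Bergmann glia (-1.28) and Rbfox2 in border macrophages (-1.10), and at equal depth per cell they were -0.16 and -0.37. Rbfox1 in myelinating oligodendrocytes was the higher one (1.54, 0.86 to 2.37).

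The P10 pair followed gene length for the members too, though not in strict order. Of 116 member values over 14 classes, 58 were at least 2-fold higher in P10 cKO (19.1% of all values) and 0 were lower (4.52%). In newborn granule neurons, Ptbp1, with 5.61 kb of introns, had a log2 ratio of -0.02, and Elavl3, with 30.1 kb, had 0.04. Rbfox3, with 416 kb, had 1.65, and Rbfox1, with 1522 kb, had 5.15. In this class 4 of the 10 members were at least 2-fold higher. Over all cells, Nova1, with 116 kb, was at 42.2 CPM in P10 WT and 213 in P10 cKO. Rbfox2, with 220 kb, was at 122 and 348. Rbfox1 ranged over classes from 3.85 in microglia to 6.96 in Bergmann glia. The Bergmann glia of P10 WT were 28 cells with 254102 UMIs in all, so the latter ratio rested on few Rbfox1 UMIs there. The median over all genes in newborn granule neurons was -0.52 under 10 kb, 0.17 from 10 to 100 kb and 1.82 over 100 kb. The P10 pair also differs in the Cell Ranger version, so genotype and counting cannot be told apart, and no difference at P10 is read as one of genotype.

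**Figure D5:**
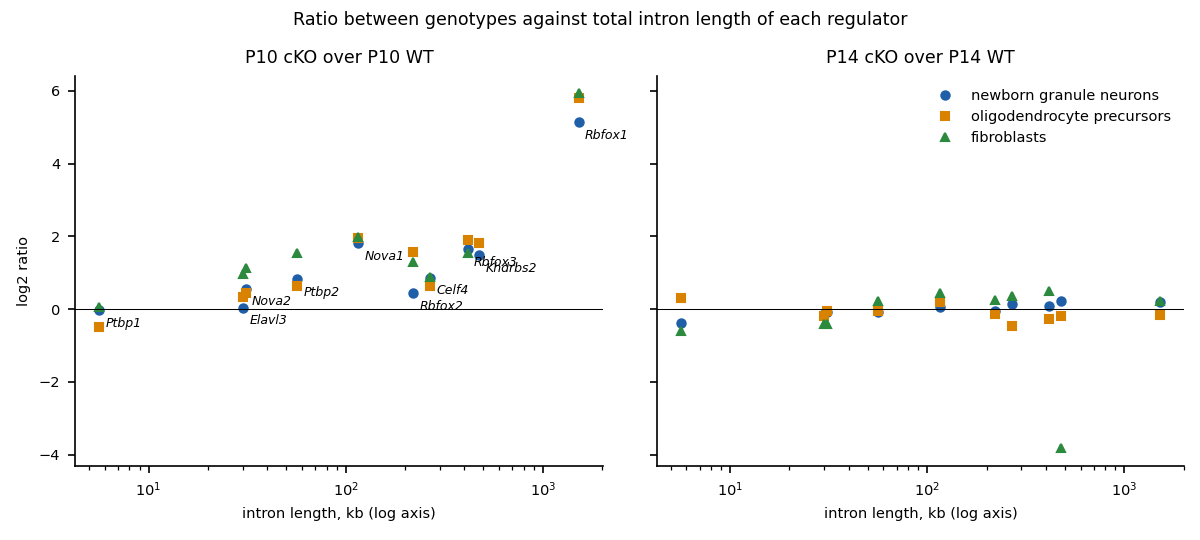
Log2 ratio between genotypes (vertical) against total intron length in kb (log axis) for the 10 regulators in newborn granule neurons, oligodendrocyte precursors and fibroblasts, at P10 (left) and P14 (right). At P10 the newborn granule value goes from -0.02 for Ptbp1 to 5.15 for Rbfox1; at P14 the points lie near 0 except Khdrbs2 in fibroblasts (-3.81).

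Over the 45 sums of classes and libraries, some members had nearly the same profile. The correlation of log2(CPM + 1) was 0.95 between Rbfox3 and Celf4 (Pearson's r) and 0.84 between Nova2 and Rbfox2 and between Ptbp2 and Celf4. Ptbp1 went its own way, with r from -0.44 (Khdrbs2) to 0.00 (Nova2). Among 12373 genes with a mean of at least 5 CPM, Rbfox3 was most like Msra (0.98), Srrm4 (0.98) and Mmp24 (0.98), and Celf4 was most like Mmp24 (0.97), Kcnb2 (0.97) and Syp (0.96). Elavl3 was most like Ank3 (0.98), Nkain1 (0.96) and Pak7 (0.96). The first gene for the others was Rpl13a for Ptbp1 (0.89), Ppm1e for Nova1 (0.89), Samd12 for Nova2 (0.92), Hectd2 for Rbfox1 (0.88), Mllt3 for Rbfox2 (0.96), Sltm for Ptbp2 (0.95) and 5330434G04Rik for Khdrbs2 (0.91). The sums share libraries and sequencing depth, so these values describe the profiles only.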

How the data were processed

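Droplet single-cell RNA-seq libraries of 4 groups were used, 1 library each, as deposited UMI count matrices; the values are whole-number counts per gene and cell that the authors made with Cell Ranger, of which the P14 files give version 7.1.0, P10 cKO 7.0.1 and P10 WT 5.0.0, per the file headers. Seurat 4.1.3, Cell Ranger 3.0.2 and mm10 come from the submitters' processing notes. Whether introns were counted is not given in the sources used here. The libraries held 91091692 to 158017834 UMIs over 6719 to 16691 barcodes.

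Cells with under 500 genes, over 20% mitochondrial UMIs or a Scrublet score over 0.22 (Scanpy 1.11.5) were removed, which took 2.54% to 3.90% as doublets. Cells were gated into 19 classes by the number of markers with a UMI, and a class needed 20 cells per library. Sums per class and library were fitted with edgeR 4.0.16 (R 4.3.3; filterByExpr at a minimum count of 10, a term for class and a block for library, all 15 classes sharing 1 estimate of the spread) or, as an alternative, DESeq2 1.42.0. The library block pairs classes of the same library, since they come from the same tissue sample. Tested on simulated counts for the mature against intermediate granule comparison, with 15593 genes, edgeR recovered 48 of 100 genes changed 2-fold and 73 of 100 changed 4-fold, with 3 false calls. The counts were drawn around the fitted means with the same dispersion of 0.019 for every gene. They hold no spread particular to a gene and no class difference that varies by library, so the false calls describe that setting only. Ratios between 2 libraries used 0.5 added UMI and exact conditional binomial 95% intervals; intervals on shares of cells are exact binomial. Both cover counting error only, and 3 UMIs were taken as the limit of a count of 0. Likeness was Pearson's r of log2(CPM + 1). Python 3.11.15, NumPy 2.4.6, SciPy 1.17.1, pandas 2.3.3 and matplotlib 3.10.9 were used.

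The members, marker lists and the list of other regulators were chosen with earlier results of these data known. Every member is named, and other regulators were named as up to 5 per comparison with the largest absolute log2 fold among those past the threshold, and paralogs of members. The 3 genes most alike were taken for each member, of which the first is named for some. Gene models came from GENCODE vM21 (GRCm38), with 32158 of 32285 gene IDs matched, and promoter sequences from RefSeq (GRCm38.p6). Alternatives were the P10 WT library added, each library left out, DESeq2, no library block, no filter on low counts, a stricter gate, called doublets kept, cells thinned to 2000 UMIs, TMM scaling and a minimum of 20 UMIs.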

Additional observations from a re-analysis of the deposited data

Results flagged for a closer look

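Of 100 differences between classes, 10 had 1 sign in P14 WT and the other sign in both cKO libraries; with 1 WT library and 2 cKO libraries the difference between genotypes was not tested. All values are log2 differences, given for P14 WT first and then for P10 cKO and P14 cKO.

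The widest were between astroglia and myelinating oligodendrocytes, where Celf4 was at 3.93 in P14 WT and at -0.36 and -0.99 in the cKO libraries, and Rbfox3 was at 1.99 in P14 WT and below 0 in both cKO libraries. Beside them, the granule lineage markers in myelinating oligodendrocytes summed to 47.4 CPM in P14 WT, 188 in P10 cKO and 315 in P14 cKO, and their part was not tested.

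In Pax2+ interneurons against granule neurons, Khdrbs2 was at 1.14, -0.27 and -0.29, and Celf4 at 0.064, -0.28 and -0.44. Ptbp1 in committed oligodendrocytes against precursors was at 0.21, -0.38 and -0.72. Ptbp1 in Bergmann glia against other astrocytes was at 0.0164, -0.52 and -1.13.

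The other 4 had values near 0 in P14 WT. Ptbp2 was at 0.0875, -0.24 and -0.23 in mature granule neurons against cycling progenitors and at 0.052, -0.35 and -0.33 against intermediate neurons. Rbfox3 in mature against intermediate granule neurons was at -0.033, 0.70 and 0.02. Nova1 in newborn granule neurons against Atoh1+ progenitors was at -0.027, 0.02 and 0.04.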

How the results depend on the processing

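Across alternatives, 174 counts of members stayed within 1.5 times and 40 moved; 449 log2 folds of called members kept direction and call, 80 lost the call and 2 turned. Ptbp1 in neurons against glia turned to 0.0929 without P14 cKO (its range over the libraries left out was -0.7601 to 0.0929) and to 0.0172 under the stricter gate, which also left the mature class off the neuron side, and Celf4 in Bergmann glia at P14 turned to 0.73 with called doublets kept; the cause was not tested. Leaving the library block out, which removes the pairing of classes within a library, gave 3 higher members for mature against cycling granule cells (5 with it), 0 for newborn neurons against Atoh1+ progenitors (4), 2 lower for mature against intermediate neurons (5) and 1 lower for astroglia against myelinating oligodendrocytes (2); the block changed no other count by over 1.5 times.

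DESeq2 gave 1 lower for astroglia against myelinating oligodendrocytes, 1 lower for mature against cycling cells, 2 lower for mature against intermediate neurons, and 0 higher and 1 lower for newborn neurons. Adding P10 WT gave 3 higher for mature against cycling cells and 1 lower for newborn neurons. Keeping called doublets gave 3 higher for mature against cycling cells and 1 lower for astroglia against myelinating oligodendrocytes, as did the stricter gate for the latter (1). Lower members in neurons against glia numbered 0 with no filter, with the stricter gate (no mature granule neurons) and with thinning (no myelinating oligodendrocytes); in the last 2 the classes compared changed with the setting. Thinning gave 1 higher for intermediate against newborn neurons, 1 lower for mature against cycling cells and 3 lower for mature against intermediate neurons. It also gave 0 higher and 2 lower at P14 between genotypes, where fewer values had 50 UMIs, and 0 higher and 3 lower between cKO ages. Between cKO ages, a minimum of 20 UMIs gave 2 higher and TMM scaling 5 lower.

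Leaving out 1 library gave 3 to 4 higher and 1 to 2 lower for mature against cycling cells, 0 to 1 higher and 1 to 2 lower for mature against intermediate neurons, and 0 to 1 higher for newborn neurons. It gave 1 to 2 lower for astroglia against myelinating oligodendrocytes, 0 to 1 lower for neurons against glia and 1 to 3 higher for Pax2+ interneurons. The stricter gate left too few mature granule neurons, and thinning too few myelinating oligodendrocytes, so comparisons of these classes alone were not run and those that average over them ran without them. Planned comparisons of Pax2- interneurons were not run, with 15 cells in P10 cKO. Members with few UMIs, such as Ptbp1 in mature granule neurons of P14 WT (5 UMIs), are limited by depth.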
